A study of Homo sapiens with 6 samples.

Results

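The forkhead box (FOX) genes encode transcription factors that share one DNA-binding fold and are sorted into subfamilies by letter. The rows were chosen by gene name alone, as every row named FOX with a subfamily letter from A to S followed by a number. This gave 52 of the 57341 named rows of the count table, including the pseudogene row FOXN3P1 and the near copies FOXO3B and FOXO1B. RNA-seq counts were compared between 3 libraries labelled H295R and 3 labelled H295R-PM-Ptc+. H295R is a human line from an adrenocortical carcinoma, and H295R-PM-Ptc+ cells are the part of it that carried the Hedgehog receptor Ptch1 at the plasma membrane when it was sorted by antibody, then amplified. Both were grown in the same medium without treatment, and no allele or agent separates them. The libraries come from 1 cell line and 1 sorted population, and nothing says whether the replicates were separate sorts or cultures, so p-values measure the spread between these libraries, which may be technical.

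Forkhead factors are best known for setting cell identity in the embryo, where members of the A group open closed chromatin and others mark single tissues such as thyroid, ovary or thymus. FOXM1 drives the genes of mitosis. The O group arrests growth and is held out of the nucleus when insulin signals through AKT. FOXE1, FOXF1, FOXF2, FOXL1, FOXA2 and FOXM1 have been described as responding to Hedgehog signaling in skin, gut mesenchyme or the neural tube, which is why the family bears on a comparison of cells sorted for Ptch1.

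The libraries held between 23264403 and 25813247 counts. PTCH1 had 441, 559 and 579 counts in the libraries labelled H295R and 248, 326 and 319 in those labelled H295R-PM-Ptc+, which is a log2 ratio (H295R-PM-Ptc+ over H295R, as fitted by edgeR) of -0.81 with a standard error (SE) of 0.147 and an adjusted p of 0.0207, so the sorted gene went against the label. The table of normalized values that accompanies the study carries the group names the other way round for the same libraries, and the counts cannot tell which naming is right. Every direction below is therefore that of the libraries as labelled. Adrenocortical markers were present, with 9 of 10 tested and a summed 969 to 1325 CPM (CPM, counts per 1000000 of the effective library size) over all 6 libraries, while CYP11B1 held at most 3 counts in each. Markers of fibroblasts, endothelium and leukocytes summed to 8.90 to 13.1, 0.551 to 1.08 and 0.850 to 2.11 CPM. In each of these 3 lists the libraries labelled H295R-PM-Ptc+ lay above the others (fibroblast 10.7 to 13.1 against 8.90 to 10.1 CPM), although LUM, PECAM1, VWF, KDR, PTPRC, CD3E, LYZ and ITGAM held at most 3 counts, and the part of these lists in the results was not tested.

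A pair of promoters is shown because FOXE1 is the one forkhead gene that passed the main test and FOXK1 is one that passed with the replicate block in the other direction. They are the 250 bases before the RefSeq start on the plus strand of GRCh38.p14, chr9:97852976-97853225 for FOXE1 and chr7:4682045-4682294 for FOXK1. Capitals mark GC boxes, found as the letters GGGCGG or their reverse complement.
FOXE1: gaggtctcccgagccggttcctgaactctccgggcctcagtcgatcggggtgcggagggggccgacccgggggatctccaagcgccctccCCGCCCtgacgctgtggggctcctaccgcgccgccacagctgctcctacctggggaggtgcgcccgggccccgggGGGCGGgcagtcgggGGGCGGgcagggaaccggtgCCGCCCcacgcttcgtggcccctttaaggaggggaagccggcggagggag
FOXK1: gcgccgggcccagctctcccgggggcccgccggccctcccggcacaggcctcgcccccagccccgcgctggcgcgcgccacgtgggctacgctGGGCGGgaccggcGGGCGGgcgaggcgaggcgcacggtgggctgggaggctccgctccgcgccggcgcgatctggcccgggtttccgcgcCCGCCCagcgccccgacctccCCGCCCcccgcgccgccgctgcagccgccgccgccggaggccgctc
The windows each held 4 GC boxes, at a GC content of 75.6% for FOXE1 and 85.6% for FOXK1. The RefSeq table matched 39 of the forkhead genes, with 50 promoter windows. A GC box was found in 30 of these windows (60.0%) and in 42.6% of all 35116. The forkhead consensus GTAAACA was found in 1 of the 50 windows, of FOXP1, and in 2.98% of all. The GLI consensus GACCACCCA, the site of the Hedgehog effectors, was found in 0 of the 50 and in 0.199% of all windows, but among the Hedgehog-linked forkhead genes FOXE1 and FOXF2 alone could be searched. Every motif was searched on both strands, and a match is only a description of the letters. FOXA2, FOXF1, FOXL1, FOXM1 and FOXN2 were not matched to this table.

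By level the family fell into 3 parts. With enough counts to be tested were 26 rows, 9 were low, with at most 14 counts in a library, and 17 held no more than 3 counts in any library. Together the 52 rows took 0.101% to 0.112% of the counts of a library. The 17 rows not detected at this depth included FOXB2, FOXC2, FOXE3, FOXI1, FOXI2, FOXI3, FOXL1, FOXL2, FOXN1, FOXN3P1, FOXO1B, FOXP2, FOXQ1, FOXR1, FOXR2 and FOXS1. Among them are the granulosa cell factor FOXL2 and the thymus factor FOXN1, and FOXB2, FOXI2, FOXL2, FOXN1, FOXO1B and FOXR1 had no count at all, which allows up to 0.130 CPM in the shallowest library. Floors of this kind cover counting error only.

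The low rows were FOXA3, FOXB1, FOXD4L3, FOXD4L4, FOXD4L5, FOXD4L6, FOXH1, FOXJ1 and FOXP3. FOXJ1, the factor of motile cilia, had 8, 6 and 1 counts in the libraries labelled H295R and 8, 3 and 7 in the others, and FOXH1, the partner of SMAD proteins downstream of Nodal, had 4, 0 and 0 against 2, 4 and 2. FOXD4L5 was the only row with 4 or more counts in one group and none above 3 in the other, at 4, 4 and 1 against 1, 1 and 2 counts. These values overlap between the groups and were not tested.

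Gene structure was set beside detection. Of the 21 rows made of 1 exon block, 7 were tested, against 19 of the 31 rows with more blocks, and the median number of blocks was 4 among tested rows and 1 among those not detected. The median length was 3954 bases among tested rows and 2312 bases among those not detected.

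FOXM1 stood far above every other member. Per length it had 76.8 CPM per kb of gene (72.2 to 80.0 over the 6 libraries), 4.75 times the mean of FOXN3, which came next, and it alone took 33.4% to 36.5% of all forkhead counts in a library. FOXN3 (16.2 CPM per kb), FOXK2 (14.9) and FOXJ3 (14.5) followed, and the ranges of neighbors in this order overlapped. FOXJ2 reached 11.0 CPM per kb (9.63 to 12.4), a range that overlapped that of FOXJ3 but not that of FOXK1, at 5.10 CPM per kb (4.06 to 5.92). From FOXK1 down, the means declined to 0.155 CPM per kb for FOXD2, and the only neighbors in the order whose ranges lay apart were FOXA2 and FOXF2, and FOXF1 and FOXD4.

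**Figure D1:**
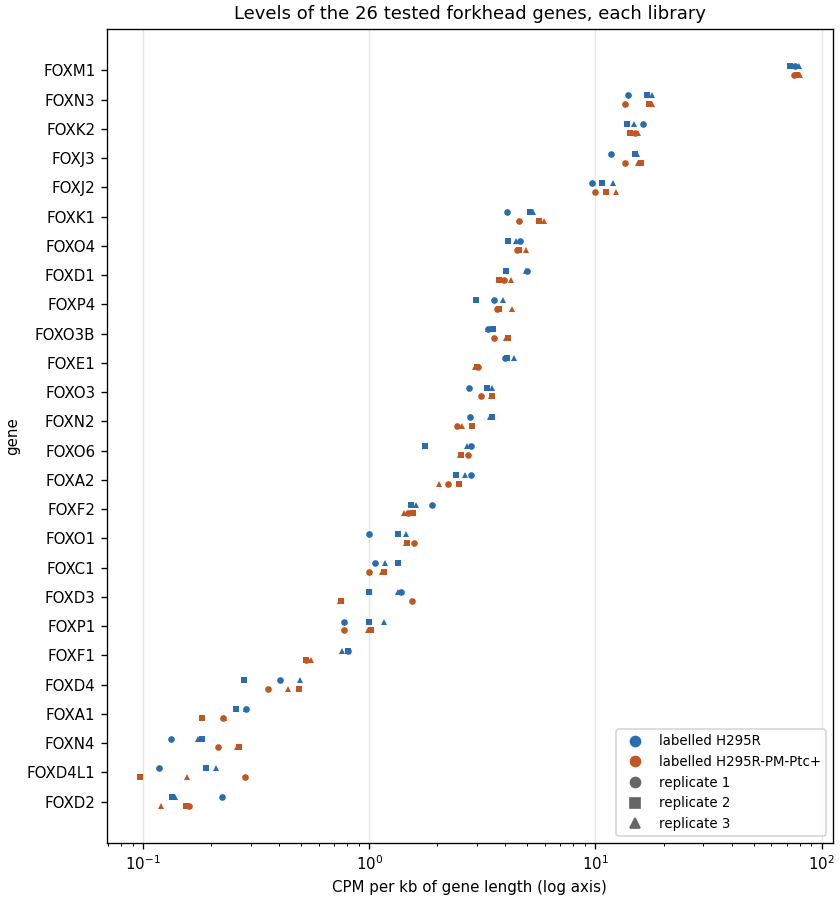
Level of each of the 26 tested forkhead genes in each of the 6 libraries, in CPM per kb of gene length on a log axis, with color for the labelled group and shape for the replicate number. FOXM1 lies at 72.2 to 80.0 CPM per kb, apart from all others, and in most genes the points of both groups overlap.

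Between the groups the tested genes were split evenly by sign, and 1 of them passed the main test. Of the 26, 13 had a positive and 13 a negative log2 ratio, with a median of 0.019 beside 9.4e-04 over all 16710 genes tested, and 20 of the 26 lay within 0.25 of 0 (log2). FOXE1 alone had an adjusted p under 0.05, with the lower level under the label H295R-PM-Ptc+. That is 3.85% of the tested members, where 3.73% of all genes tested passed (1.32% as lower and 2.42% as higher). DESeq2 also called FOXE1 alone, where it called 5.45% of all genes (2.08% as lower and 3.37% as higher). At an unadjusted p under 0.05 there were 4 members (FOXE1, FOXF1, FOXN2 and FOXN4), while 17.3% of all genes reached this limit. With the replicate number as a block 4 members passed (FOXE1, FOXF1 and FOXN2 lower, FOXK1 higher), which is 15.4% of the tested members where 22.5% of all genes passed (10.4% as lower and 12.1% as higher). At an unadjusted p under 0.05 with the block there were 7 members, beside 34.1% of all genes. Shares this near to or under the background say nothing particular about the family. In bulk RNA, fewer cells that express a gene and less RNA per cell cannot be told apart.

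**Figure D2:**
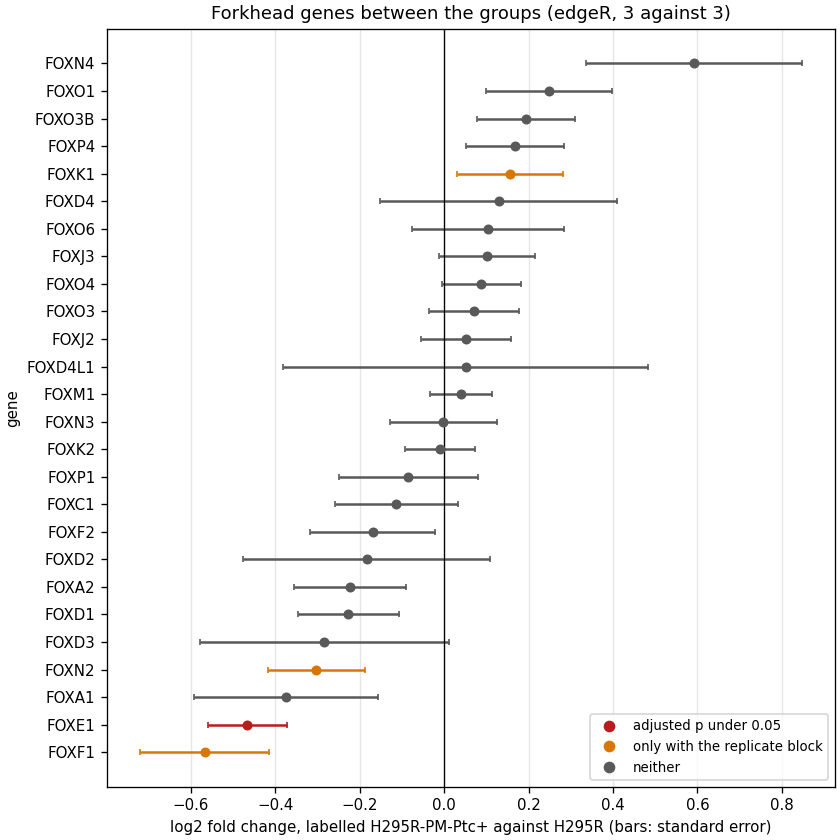
Log2 ratio (label H295R-PM-Ptc+ over label H295R) of the 26 tested forkhead genes with its standard error, derived from the edgeR F statistic, 3 libraries against 3. Values run from -0.57 (FOXF1) to 0.59 (FOXN4), and FOXE1 is the only one with an adjusted p under 0.05 without the block.

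FOXE1, also known as a thyroid factor needed for the thyroid to form and settle in the neck, lies on chromosome 9 from 97853254 to 97856715 (GRCh38, plus strand) and is a single exon of 3462 bases. The libraries labelled H295R had 13.8, 14.0 and 15.1 CPM (330, 356 and 373 counts) and those labelled H295R-PM-Ptc+ 10.5, 10.4 and 10.2 CPM (268, 259 and 235 counts). The lowest of the former stood above the highest of the latter, so the groups did not overlap, and each of the 3 same-numbered pairs was lower. The means were 14.3 ± 0.686 and 10.4 ± 0.176 CPM (SD, n = 3 each), a 1.38-fold difference, and the log2 ratio was -0.47 (SE 0.0934, edgeR adjusted p = 0.0304). A two-sided exact permutation test gave p = 0.1, and with 3 libraries a group no smaller p can be reached. FOXE1 also passed with DESeq2 (adjusted p = 0.00843) and with the block (9.4e-04). With 1 library left out in turn it passed in 1 of 6 fits, at log2 ratios of -0.49 to -0.44. Under the label H295R, leaving out replicate 2 gave an adjusted p of 0.0852 and leaving out replicate 3 one of 0.130. Under the label H295R-PM-Ptc+ the values were 0.0658, 0.121 and 0.132 on leaving out replicates 1, 2 and 3.

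FOXE1 starts 2336197 bases beyond the end of PTCH1, in a stretch where most genes were lower in the same libraries. Of the 54 tested genes within 3 Mb of it, 47 (87.0%) had a negative log2 ratio, with a median of -0.20, where 49.8% of all tested genes did. EdgeR called 5 of them lower (9.26%, beside 1.32% of all genes) and 0 higher. PTCH1, already given above as lower, is counted among the 54, the 47 and these 5. Of its 20 nearest tested neighbors 15 were lower, at a median of -0.16, and FOXE1 itself lay -0.31 beyond that median (log2). Such a neighbor median or a lower one was found for 2.91% of all tested genes, and it was the lowest among the tested forkhead genes. The part of the neighborhood in the FOXE1 difference was not tested.

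**Figure D3:**
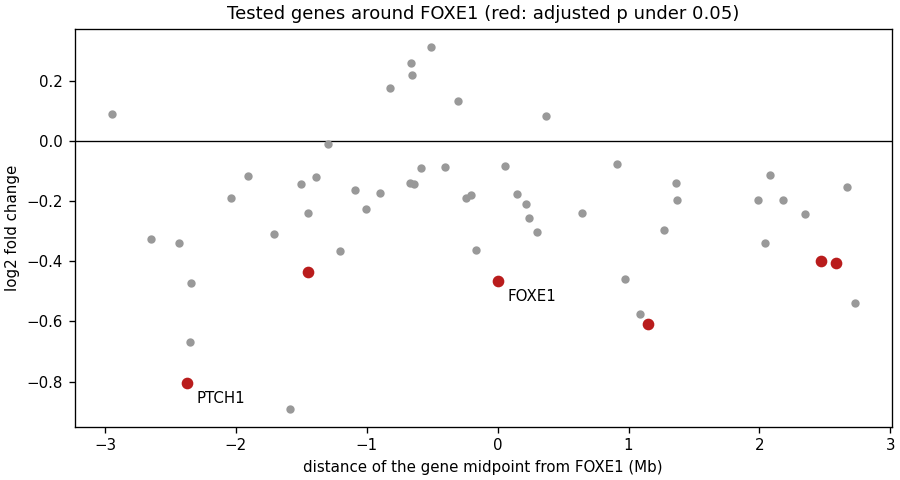
Log2 ratio of the tested genes whose midpoints lie within 3 Mb of FOXE1, by distance in Mb, with genes of an adjusted p under 0.05 in red. PTCH1 and FOXE1 sit in a field in which 47 of the 54 genes around FOXE1, PTCH1 among them, are below 0.

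FOXF1 and FOXF2 pattern the mesenchyme of gut and lung. FOXF1 (chromosome 16, 86510527 to 86515418) gave 2.85, 2.83 and 2.67 CPM (68, 72 and 66 counts) in the libraries labelled H295R and 1.84, 1.85 and 1.94 CPM (47, 46 and 45 counts) in those labelled H295R-PM-Ptc+. The groups did not overlap and the 3 libraries of each group lay close together. The log2 ratio was -0.57 (SE 0.153), with an edgeR adjusted p of 0.0850 that became 0.0253 under the replicate block and means of 2.78 ± 0.0986 against 1.88 ± 0.0577 CPM (SD, n = 3 each). Its 20 nearest tested neighbors had a median of 0.027, and 8 of them were lower. FOXF2, on chromosome 6, had 4.14, 3.35 and 3.52 against 3.25, 3.42 and 3.11 CPM, with overlapping groups and a log2 ratio of -0.17 (adjusted p = 0.638).

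Of the 6 forkhead genes listed as linked to Hedgehog signaling 5 were tested, since FOXL1 had a single count in all. FOXE1 was the 1 of 5 that passed, lower, where 3.73% of all genes passed and 1.32% did so as lower. With the replicate block 2 passed, FOXE1 and FOXF1, beside 22.5% of all genes. Of the 5, 4 had negative log2 ratios, and the median was -0.22. FOXA2, a pioneer factor of endoderm and floor plate on chromosome 20, had 7.37, 6.30 and 6.88 CPM under the label H295R and 5.79, 6.52 and 5.27 under the other. A library of the second group lay within the range of the first, and the log2 ratio was -0.22 (SE 0.132, adjusted p = 0.446).

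FOXM1 (chromosome 12, 2857681 to 2877040) had 363, 346 and 378 CPM under the label H295R and 362, 374 and 383 under the label H295R-PM-Ptc+. The groups overlapped, and the log2 ratio of 0.041 (adjusted p = 0.849) had an SE of 0.0737, below the median SE of 0.129 over the tested members. Its 20 nearest tested neighbors had a median of -0.11, with 13 of them lower. Of 13 FOXM1 target genes all were tested, and 0 had an adjusted p under 0.05 with edgeR or DESeq2, 3 an unadjusted p under 0.05 with edgeR (17.3% of all genes), at a median log2 ratio of -0.0026. SKP2, which marks the CDK inhibitor p27 for breakdown, had a log2 ratio of -0.25 (adjusted p = 0.101), and PLK1, a kinase of mitotic entry, 0.21 (adjusted p = 0.197). With the replicate block 3 of the 13 passed (23.1%, beside 22.5% of all genes), SKP2 lower and PLK1 and CDC25B higher, the last named after its value was seen.

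The O group counts 6 rows, of which FOXO1, FOXO3, FOXO3B, FOXO4 and FOXO6 were tested and none passed with edgeR, with or without the block, with DESeq2 or at an unadjusted p under 0.05. FOXO4 had 4.54 and FOXO3 3.27 CPM per kb, above FOXO6 (2.51) and FOXO1 (1.38). In FOXO1 and FOXO3B each library labelled H295R-PM-Ptc+ stood above each of the others, with 8.42 and 8.41 CPM at the closest in FOXO1, and the log2 ratios were 0.25 (adjusted p = 0.450) and 0.19 (adjusted p = 0.449). FOXO3B is a near copy of FOXO3, and 54.0% of its 75-base windows, the length of a read, occur unchanged in FOXO3, so its counts are uncertain.

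Targets and regulators of the O group were taken from lists. Of 19 FOXO target genes 0 passed with edgeR, 2 with DESeq2 (5.45% of all genes), and 6 had an unadjusted p under 0.05 with edgeR (17.3% of all genes), with 8 higher and 11 lower and a median of -0.012 (log2). PDK4, which shuts pyruvate off from the citric acid cycle, had a mean of 1792 ± 104 CPM under the label H295R and 1446 ± 35.9 under the other (SD, n = 3 each), a log2 ratio of -0.31 (adjusted p = 0.0736), and CDKN1A, the CDK inhibitor p21, one of 0.38 (adjusted p = 0.0882). Both passed with DESeq2 (0.0105 and 0.0391). With the block 7 of the 19 (36.8%) passed, 3 higher and 4 lower, beside 22.5% of all genes. Of 25 tested FOXO regulators 0 passed with edgeR, 1 with DESeq2 (5.45% of all genes), and 2 had an unadjusted p under 0.05, namely AKT2 (log2 ratio 0.32, adjusted p = 0.0743) and STK3 (0.19, adjusted p = 0.247). With the block 6 of the 25 passed (24.0%, beside 22.5% of all genes), 5 higher and 1 lower.

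FOXK1 and FOXK2 bind SIN3 corepressors and take part in the control of glycolysis and autophagy. FOXK1 (chromosome 7, 4682309 to 4771443) had 53.2, 67.0 and 69.2 CPM under the label H295R and 60.2, 73.4 and 77.5 under the other, so the groups overlapped while each same-numbered pair was higher. Its log2 ratio of 0.16 (SE 0.125) had an adjusted p of 0.595, and under the replicate block one of 0.0272. FOXK2 (chromosome 17) had 126, 107 and 115 against 117, 110 and 119 CPM, so the groups overlapped at a log2 ratio of -0.0096 (SE 0.0833, adjusted p = 0.973). Of 8 FOXK partners 0 passed with edgeR or DESeq2 or at an unadjusted p under 0.05, ASXL1 (0.12) and ASXL2 (0.20, log2) had the smallest p, and 1, ASXL2, passed with the block, which is 12.5% beside 22.5% of all genes.

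FOXN2 and FOXN3 are related repressors, and FOXN3 is tied to the DNA damage checkpoint. FOXN2 (chromosome 2, 48314637 to 48379294) had 15.3, 19.1 and 18.6 CPM under the label H295R and 13.3, 15.5 and 14.1 under the label H295R-PM-Ptc+. The groups overlapped only because replicate 1 of H295R lay below replicate 2 of the others, and all 3 same-numbered pairs were lower. The log2 ratio was -0.30 (SE 0.114), and its adjusted p of 0.212 became 0.0106 under the replicate block. FOXN3 (chromosome 14) had 154, 186 and 196 against 149, 189 and 197 CPM, with groups that overlapped (log2 ratio -0.0016, SE 0.127, adjusted p = 0.996). FOXN4, a factor of retinal progenitors, stood at only 11, 16 and 15 against 19, 23 and 21 counts, and its log2 ratio of 0.59 (SE 0.256) had an adjusted p of 0.277.

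**Figure D4:**
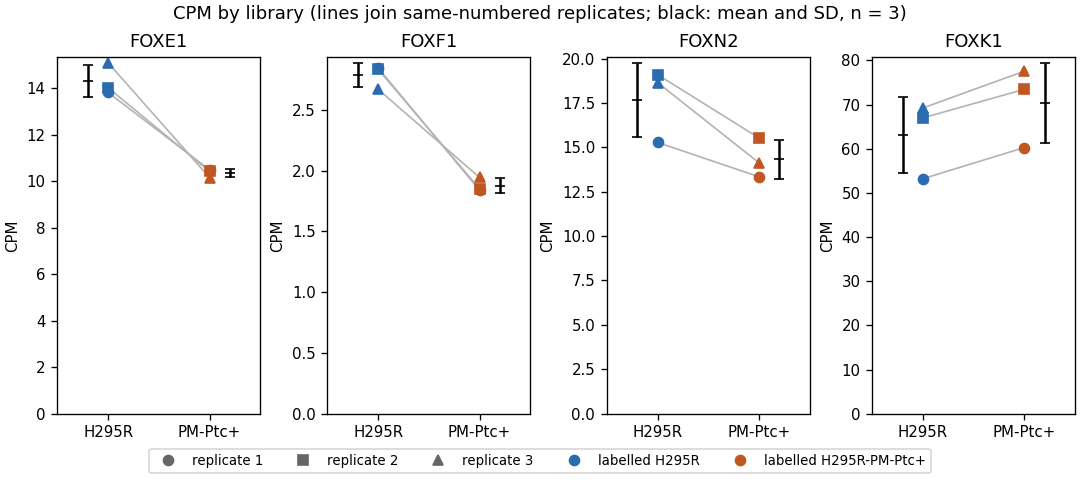
CPM of FOXE1, FOXF1, FOXN2 and FOXK1 in each library, with lines joining same-numbered replicates and black bars for the mean and SD (n = 3). FOXE1 and FOXF1 separate the groups, while in FOXN2 and FOXK1 the groups overlap and every pair moves one way.

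FOXJ2 and FOXJ3 are widely expressed activators. FOXJ3 (chromosome 1) had 80.8, 103 and 105 CPM against 93.4, 110 and 107, a log2 ratio of 0.10 (adjusted p = 0.732), and FOXJ2 (chromosome 12) 60.6, 67.1 and 75.5 against 62.9, 69.9 and 78.0, one of 0.052 (adjusted p = 0.872). FOXP1, a repressor known from lung and lymphocytes and located on chromosome 3, had 10.5, 13.6 and 15.9 CPM under the label H295R and 10.6, 13.8 and 13.4 under the other. Its log2 ratio was -0.085 (SE 0.165, adjusted p = 0.861), and its relative FOXP4 had one of 0.17 (adjusted p = 0.525). Replicate 1 was the lowest library of both groups in FOXP1, FOXJ2 and FOXJ3.

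Of the remaining tested members, FOXA1, a pioneer factor of breast and liver, had 27, 26 and 28 counts under the label H295R and 23, 18 and 21 under the other, groups that did not overlap (log2 ratio -0.38, adjusted p = 0.437). FOXC1, FOXD1, FOXD2, FOXD3, FOXD4 and FOXD4L1 overlapped between the groups, with log2 ratios between -0.28 and 0.13 and adjusted p of at least 0.384. The 6 FOXD4 rows are near copies on chromosomes 2 and 9, and 85.0% of the 75-base windows of FOXD4L3 occur in FOXD4L6. Their single rows are uncertain, and summed they held 40 to 48 counts in the libraries labelled H295R and 44 to 56 in the others. In all, 6 of the 26 members had groups that did not overlap (FOXA1, FOXE1 and FOXF1 lower, FOXN4, FOXO1 and FOXO3B higher), which is 23.1% where 23.5% of all genes tested showed it (11.2% lower and 12.4% higher).

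Replicate 1 stood apart in a number of members. In 10 of the 26 (38.5%) both replicate 1 libraries lay outside the range of the other 4, beside 34.8% of all genes tested. They were lower in FOXC1, FOXJ2, FOXJ3, FOXK1, FOXN3, FOXO3 and FOXP1 and higher in FOXD2, FOXD3 and FOXO6, with differences from -0.41 (FOXP1) to 0.53 (FOXD3) on the log2 scale. The 7 lower genes had exons of 42.4% to 57.3% GC and the 3 higher ones of 64.0% to 70.6% GC. Over the 26 genes, GC content and the replicate 1 difference had a Spearman correlation of 0.712, and over 16678 tested genes one of 0.409, where all points share the same 6 libraries. Between GC content and the group log2 ratio the correlation over the 26 was 0.0024 and over all genes 0.127. The part of GC content in these differences was not tested.

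**Figure D5:**
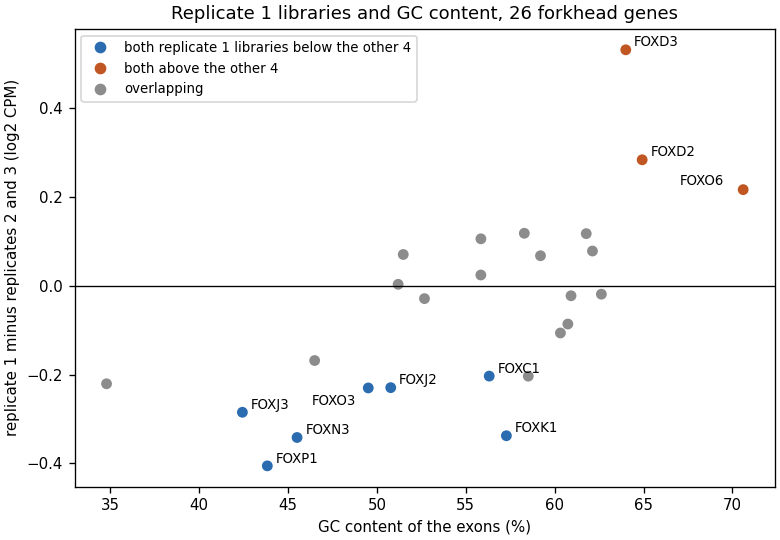
GC content of the exons of the 26 tested forkhead genes (%) against the mean log2 CPM of both replicate 1 libraries minus that of the other 4. The 7 genes lower in replicate 1 lie at or under 57.3% GC and the 3 higher ones at or above 64.0%.

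Partners of FOXE1 in the thyroid were mostly silent. Of 9 genes 4 were tested, and NKX2-1 and PAX8 held at most 3 counts in any library. By edgeR 0 of the 4 passed, as with DESeq2, while 3 had an unadjusted p under 0.05 (17.3% of all genes) and 3 of the 4 had positive log2 ratios. TG, which encodes thyroglobulin, had 0.958 ± 0.172 against 1.56 ± 0.0755 CPM (SD, n = 3 each), a log2 ratio of 0.70 (adjusted p = 0.118, and 0.0368 under the replicate block). TSHR, the receptor of thyrotropin, had one of 0.55 (adjusted p = 0.121 and 0.0189), and HHEX, named after its value was seen, passed with the block only (5.5e-04). These 3 of 4 stand beside 22.5% of all genes that passed with the block. DUOX2, the other tested gene and also named after its value was seen, went the other way. It had 40, 23 and 33 counts under the label H295R against 28, 20 and 15. Its log2 ratio was -0.60 (edgeR adjusted p = 0.352, and 0.101 under the replicate block). The 5 thyroid markers summed to 2.91 to 3.81 CPM under the label H295R and 4.67 to 5.32 under the other, and their part in the FOXE1 difference was not tested.

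The other lists held 1 call. Among 8 targets and partners of FOXL2, which was itself at 0 in every library, ESR2, the estrogen receptor beta, rose from 210, 248 and 209 counts under the label H295R to 346, 362 and 296 under H295R-PM-Ptc+ (log2 ratio 0.60, SE 0.107, adjusted p = 0.0188). That is 1 of the 8, where 3.73% of all genes passed and 2.42% did so as higher. On leaving out H295R replicate 3 its adjusted p was 0.104, and on leaving out H295R-PM-Ptc+ replicates 1, 2 and 3 it was 0.0508, 0.0902 and 0.0599. The list had a median of 0.082 (log2), and 4 of its 8 genes passed with the block, beside 22.5% of all genes. Besides ESR2 these were STAR, which carries cholesterol into mitochondria (log2 ratio 0.41, adjusted p = 0.346, and 3.9e-06 under the block), AMH (0.45) and FST (-0.14), all 3 named after their values were seen. Of the partners of FOXH1, 3 were tested and 0 passed with edgeR, with the block, with DESeq2 or at an unadjusted p under 0.05, SMAD4 standing at -0.098 and SMAD3 at 0.031 (log2). Of 10 noncoding rows with a forkhead name 3 were tested, likewise with 0 calls in those fits. FOXN3-AS1 (-0.21) and FOXD2-AS1 (-0.13, log2) had the smallest p.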

How the data were processed

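Stranded libraries from 3 replicates of each cell population were sequenced in paired reads of 75 bases. The labels give polyA RNA as the molecule and name a stranded total RNA kit, while the methods of the study name a stranded mRNA kit. Reads were aligned by the authors with STAR 2.4.0a to hg38 and counted with featureCounts over Ensembl gene models, with multiply mapped reads kept at their primary position. The authors deposited raw counts with no filter or normalization, and 1 row without a name, at 0 counts, was left out.

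Genes that passed filterByExpr were tested over the whole table with edgeR 4.0.16 in R 4.3.3 (TMM factors, glmQLFit with glmQLFTest, both sides tested, no term but the group, Benjamini-Hochberg adjustment over 16710 genes). Each SE printed is the absolute log2 ratio divided by the square root of the F statistic of this test. CPM use TMM-scaled library sizes, and 0.5 was added to CPM before log2 in pairs, permutation tests and replicate differences. DESeq2 1.42.0, limma-voom (limma 3.58.1), relative log expression factors, no filter, at least 10 counts in every library, a replicate block and leaving out each library were the alternatives. The fits were tested on simulated data. Same-numbered replicates were taken as pairs in the block and where pairs are counted, but not in the main test. Their deviations from the group means correlated at 0.497, 0.307 and 0.228 for replicates 1, 2 and 3. Pairs of unlike number gave -0.352 to 0.150, of which replicates 2 and 3 gave 0.150 and 0.109. Deviations within a group cancel out in each gene, which lowers the values of unlike pairs. Replicate 1 was thus set apart more clearly than replicates 2 and 3 were from each other.

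GC content and 75-base windows were read from hg38 at the coordinates of the count table, and promoters from RefSeq. Members given in full are those that passed with or without the block, the 5 highest per length, the tested Hedgehog-linked ones, FOXP1, and any with 4 or more counts in one group and none above 3 in the other. From each list, the calls or otherwise the 2 smallest p are named. Some items are not reported here by name. The members and lists were chosen with earlier results of these data known.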

Additional observations from a re-analysis of the deposited data

How the results depend on the processing

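FOXE1 kept its sign and an adjusted p under 0.05 under both other tests, both filters, the other scaling and the block, and lost it in 5 of the 6 fits with a library left out. The number of forkhead members that passed was 0 to 1 with a library left out, 4 with the replicate block and 2 (FOXE1 and FOXN2) without both replicate 1 libraries, an alternative chosen after seeing the data. Over all genes it was 624, with 219 to 810 when a library was left out (278 and 219 without H295R replicates 2 and 3, 247 and 257 without H295R-PM-Ptc+ replicates 2 and 3), 1111 with no filter, 3758 with the replicate block and 2013 without both replicate 1 libraries.

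With the replicate block, passing list members numbered 3 for FOXM1 targets, 7 for FOXO targets, 6 for FOXO regulators, 3 for thyroid partners of FOXE1, 1 for FOXK partners, 4 for the FOXL2 list and 2 for Hedgehog-linked genes. Among members the replicate block added the calls of FOXF1, FOXN2 and FOXK1 and changed no other. Without both replicate 1 libraries these were 2, 3, 4, 1, 1 and 4 for the first 6 lists. DESeq2 gave 2 FOXO targets and 1 FOXO regulator, as did no filter. With a library left out, the ranges were 0 to 1 for FOXO targets, FOXO regulators, thyroid partners and Hedgehog-linked genes, and 0 to 2 for the FOXL2 list. Members near 0 changed sign. With a library left out FOXJ2 ranged from -0.039 to 0.13, FOXJ3 from -0.011 to 0.16, FOXK2 from -0.065 to 0.053, FOXN3 from -0.10 to 0.11 and FOXP1 from -0.23 to 0.050 (log2). FOXN3 was at 3.8e-04 under the filter of 10 counts in every library, and FOXN3 at 0.015 and FOXK2 at 0.045 without both replicate 1 libraries. The cause of these shifts was not tested. Of all alternative values, 342 kept their direction and side of the threshold or stayed within the spread, 65 moved by more, 13 changed sign, 4 came to pass the threshold and 5 no longer passed it. Depth limits the 17 members under 4 counts and the 9 low ones, which were not tested in the main fit.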
